A study of Homo sapiens with 19 samples.

Results

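The sites described here are the places in the genome where HIF-1α was called in HIF-1α re-expressing 786-O cells, where HIF-2α was not called in any of the cells studied, and where the control cells, which had not been given HIF-1α, already carried a HIF-1β peak. A site was taken when its HIF-1α window shared no base with any of the 3 lists of HIF-2α windows and at least 1 base with the HIF-1β window list of the control cells. Of the 5147 HIF-1α windows, 1398 met this rule (27.2%, 95% Wilson interval 26.0 to 28.4), which is 41.5% of the 3367 HIF-1α windows without HIF-2α. All 7 lists together hold 29309 windows. The sites were thus selected on the measured calls of HIF-1α, of HIF-2α and of HIF-1β in control cells, and the presence or absence of these calls at them is not a result.

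786-O cells are a renal cancer line of the clear cell type that lacks functional VHL and expresses HIF-2α, but no full-length HIF-1α, without hypoxia. Pools of these cells were transduced with the empty lentiviral vector (pRRL, control cells), with the vector carrying HIF-1α (pRRL-HIF-1α, HIF-1α re-expressing cells) or with the vector carrying HIF-2α (pRRL-HIF-2α, HIF-2α overexpressing cells). All 3 pools share the VHL defect, the endogenous HIF-2α and the viral transduction. In the HIF-1α re-expressing and HIF-2α overexpressing cells the added subunit is driven by the viral vector at a level that the native gene does not set. ChIP-seq was done with 1 library per antiserum and pool, for HIF-1β and HIF-2α in each pool and for HIF-1α in the HIF-1α re-expressing cells, and RNA-seq with 3 libraries per pool. With a single ChIP library per condition there is no replicate check on any peak, and the intervals given for shares of sites cover counting error only.

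HIF-1α and HIF-2α are the oxygen-regulated subunits of the hypoxia-inducible factors. Each pairs with the constitutive subunit HIF-1β (ARNT) to bind the hypoxia response element (HRE), whose core is ACGTG or GCGTG. HIF-1β is also the partner of other proteins of its family, such as the aryl hydrocarbon receptor (AHR), so that a HIF-1β peak can be present where no HIF-α subunit is. Absence of HIF-α at the sites in control cells was not shown, since HIF-1α was not measured by ChIP in those cells. The paper describes a truncated HIF-1α in 786-O cells as able to bind DNA. It also reports HIF-2α signal in control cells below the calling threshold at sites called only after HIF-2α overexpression. What HIF-1β was paired with at the sites in control cells was not tested.

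The sequences below show what lies under these windows at genes that recur in the results. They were taken from GRCh37, the build of the windows, and are written 5′ to 3′ on the strand of the named gene, with every HRE core on either strand in capitals (CACGT and CACGC are the cores ACGTG and GCGTG read from the other strand). Each run holds the core nearest the window midpoint. A run is 30 bases where it would touch an annotated exon and up to 100 bases elsewhere. The first set are genes of the HIF target lists, namely CA9 (a carbonic anhydrase of the cell surface), PFKFB3 (which makes the activator of phosphofructokinase), WSB1 (a substrate adaptor of a ubiquitin ligase), LOX (lysyl oxidase, which cross-links collagen), SLC16A1 (a lactate transporter), ANKRD37 (an ankyrin repeat protein), KDM4C and KDM2B (histone demethylases), P4HB (the beta subunit of collagen prolyl 4-hydroxylase) and CCND1 (cyclin D1).
CA9 (chr9:35673894-35673923, plus strand): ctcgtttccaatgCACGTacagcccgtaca
PFKFB3 (chr10:6244729-6244828, plus strand): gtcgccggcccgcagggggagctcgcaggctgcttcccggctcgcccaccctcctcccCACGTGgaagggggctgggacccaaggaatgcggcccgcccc
WSB1 (chr17:25621002-25621101, plus strand): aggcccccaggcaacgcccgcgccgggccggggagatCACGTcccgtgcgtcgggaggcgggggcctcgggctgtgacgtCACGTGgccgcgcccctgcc
LOX (chr5:121413179-121413208, minus strand): ggccgcccagccGCGTGgacggcatggtgg
SLC16A1 (chr1:113498784-113498813, minus strand): tggtgagctgcgACGTGactggctagctgc
ANKRD37 (chr4:186317629-186317728, plus strand): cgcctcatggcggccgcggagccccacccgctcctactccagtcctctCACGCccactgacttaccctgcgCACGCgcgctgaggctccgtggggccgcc
KDM4C (chr9:6758059-6758088, plus strand): cggggtcctgtgcGCGTGcgcagcgaacag
KDM2B (chr12:121905385-121905414, minus strand): cggggcgcggggCACGCcccCACGCagccc
P4HB (chr17:79819238-79819337, minus strand): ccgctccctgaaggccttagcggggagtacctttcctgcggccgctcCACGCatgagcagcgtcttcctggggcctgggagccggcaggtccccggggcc
CCND1 (chr11:69455318-69455417, plus strand): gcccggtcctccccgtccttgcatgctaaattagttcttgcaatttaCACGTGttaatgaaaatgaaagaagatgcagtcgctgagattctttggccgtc
In CA9 the centre of the core lay 16 bp upstream of the start site, in PFKFB3 73 bp and in WSB1 55 bp upstream. PFKFB3, WSB1, CCND1 and GPR146 hold the palindrome CACGTG, which counts as a core on both strands and is also the E-box. The second set are genes whose RNA differed most between HIF-1α re-expressing and control cells, namely SPRY1 (an antagonist of receptor tyrosine kinase signalling), RASAL1 (a RAS GTPase-activating protein), GPR146 (an orphan G protein-coupled receptor) and PRKAA2 (a catalytic subunit of AMP-activated kinase), which were higher, and POP7 (a subunit of RNase P), NDUFS6 (a subunit of respiratory complex I) and ID2 (an inhibitor of basic helix-loop-helix factors), which were lower.
SPRY1 (chr4:124318562-124318661, plus strand): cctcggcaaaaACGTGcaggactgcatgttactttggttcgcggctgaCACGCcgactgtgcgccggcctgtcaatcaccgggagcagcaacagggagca
RASAL1 (chr12:113568291-113568390, minus strand): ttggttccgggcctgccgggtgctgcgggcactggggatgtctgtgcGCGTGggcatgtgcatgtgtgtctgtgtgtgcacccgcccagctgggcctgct
GPR146 (chr7:1084172-1084201, plus strand): cggggccgacggtCACGTGtgtacacaggg
PRKAA2 (chr1:57111094-57111123, plus strand): aagatcggacactACGTGctgggcgacacg
POP7 (chr7:100303065-100303164, plus strand): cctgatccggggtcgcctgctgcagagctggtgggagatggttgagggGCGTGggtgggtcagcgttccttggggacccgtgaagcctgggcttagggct
NDUFS6 (chr5:1801635-1801664, plus strand): ccggggagaaggtCACGCacactggccagg
ID2 (chr2:8822080-8822109, plus strand): ctcgtcttgatagACGTGccaccttccgcc
A core with its centre within 100 bp of the start site was present in 8 of these 17 runs, and 11 had the core within 50 bp of the midpoint of the HIF-1α window. Of the 26 genes from which these were drawn, 7 had no HRE core within 150 bp of the midpoint, and 2 with a core are not shown. The cores were read from the reference sequence, and a match shows only that these letters are there.

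When HIF-1α was re-expressed, HIF-1β was called again at most of the sites. Of the 1398 sites, 929 (66.5%, 63.9 to 68.9) also had a HIF-1β window after HIF-1α re-expression. At HIF-1α windows without HIF-2α and without HIF-1β in control cells this share was 56.2% of 1969, so that the sites exceeded them by 10.2 percentage points (Newcombe interval 6.90 to 13.5). The sites were chosen for control HIF-1β and these windows for its absence, so that the selection alone can produce a difference in this direction. At HIF-1α windows that did overlap a HIF-2α window the share was 58.7% of 1780 (difference 7.80 points, 4.41 to 11.1). Among those that also had control HIF-1β it was 58.8% of 1562. At the 1512 HIF-1β windows of control cells where neither HIF-1α nor HIF-2α was ever called it was 14.7%, a difference of 51.7 points (48.6 to 54.7). HIF-1β in control cells was thus called again far more often where HIF-1α had been called than where it had not. The comparison was repeated near start sites, since the classes differed in position. Among windows within 1 kb of a start site, the shares were 75.9% at the sites, 60.7% at HIF-1α windows without control HIF-1β, 73.0% at those with HIF-2α (difference 2.89 points, −0.870 to 6.67, an interval that includes 0) and 36.5% at control HIF-1β windows without HIF-α.

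In the HIF-2α overexpressing cells, HIF-1β was called at 542 of the 1398 sites (38.8%), although HIF-2α itself was not. The share was 9.19% at HIF-1α windows without control HIF-1β (difference 29.6 points, 26.7 to 32.4) and 73.7% at HIF-1α windows with HIF-2α (difference −34.9 points, −38.2 to −31.6). The sites lay between these classes in both the whole lists and the windows within 1 kb of a start site, where the difference from the class with HIF-2α was −27.2 points (−31.3 to −23.0). The sites were chosen for HIF-1β in control cells and the first class for its absence. HIF-2α in these same cells was part of what defined the second class. The selection alone can thus produce differences in these directions, and how far it does was not tested. At windows with HIF-2α that also had control HIF-1β the share in the whole lists was 80.5% of 1562. Taking the 3 pools together, 28.0% of the sites had HIF-1β in every pool, 38.5% in control and HIF-1α re-expressing cells only, 10.8% in control and HIF-2α overexpressing cells only, and 22.7% in control cells alone. The HIF-1β lists hold 6572 windows for control cells, 5807 for HIF-1α re-expressing cells and 3431 for HIF-2α overexpressing cells, and sequencing depth cannot be read from them. A lower share in 1 pool than in another cannot be told apart from a library with fewer called peaks.

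**Figure D1:**
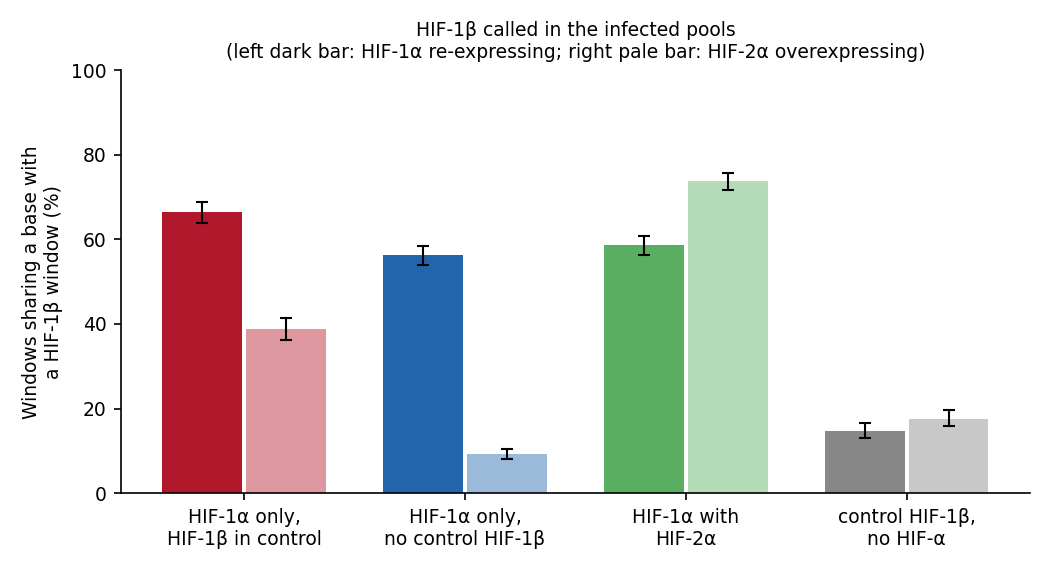
Bars give the percentage of windows of each class (4 classes along the x axis) that share a base with a HIF-1β window, in the HIF-1α re-expressing cells (dark bar, left) and in the HIF-2α overexpressing cells (pale bar, right), and error bars are 95% Wilson intervals. The sites with HIF-1α only and HIF-1β in control stand at 66.5% and 38.8%, whereas control HIF-1β windows without HIF-α stand at 14.7% and 17.6%.

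The HIF-1α and HIF-1β windows were close to one another at these sites. The distance between the midpoint of the HIF-1α window and that of the control HIF-1β window had a median of 212 bp, 55.1% of the sites were within 250 bp and 80.4% within 500 bp. For the HIF-1β window of the HIF-1α re-expressing cells, where present, the median was 219 bp. At the 929 sites with both, the HIF-1β midpoint of the HIF-1α re-expressing cells was the closer one at 437 (47.0%, 43.8 to 50.3), so that neither list lay closer to HIF-1α beyond counting error. The rule admits sites that only touch. Of those just inside, the smallest overlaps with a control HIF-1β window were 63, 260 and 310 bp, near RP13-279N23.2, BORCS6 and ADGRG1, and 6 sites shared fewer than 500 bp. Just outside, the smallest gaps between a HIF-1α window and a control HIF-1β window were 75, 143 and 272 bp, near CROCCP2, CXXC5 and BDNF. On the other criterion, the sites nearest to a HIF-2α window without touching it were 86, 113 and 192 bp away, at CDC42EP4, FSCN1 and HNRNPL, and the windows left out for the least overlap shared 105, 156 and 194 bp, near LTBP3, CXXC5-AS1 and FLNC. A HIF-2α midpoint within 5 kb was present at 42 sites and within 10 kb at 122, and the median distance to the nearest was 98.2 kb.

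These were mostly promoter sites. A transcription start site lay within 5 kb of the midpoint at 89.3%, within 1 kb at 80.5% and within 250 bp at 58.1%, with a median distance of 0.180 kb. HIF-1α windows without HIF-2α and without control HIF-1β were at start sites more often still (88.6% within 1 kb, difference −8.03 points, −10.6 to −5.55), whereas HIF-1α windows with HIF-2α (53.1%, difference 27.4 points, 24.2 to 30.5) and control HIF-1β windows without HIF-α (28.2%, difference 52.3 points, 49.1 to 55.3) were there less often. The midpoint was upstream of the nearest start site at 45.5% of the sites and downstream at 53.6%. It fell in an exon at 41.9%, in an intron at 36.3% and between genes at 21.8%. The nearest gene was protein-coding at 77.9% and a long non-coding RNA at 17.2%, and 32.0% of the windows held start sites on both strands. CpG-rich sequence, here a centre of 301 bases with a GC content of at least 50% and a CpG ratio of at least 0.6, was found at 68.7% of the sites, against 77.0% of HIF-1α windows without control HIF-1β, 39.2% of those with HIF-2α and 15.3% of control HIF-1β windows without HIF-α.

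**Figure D2:**
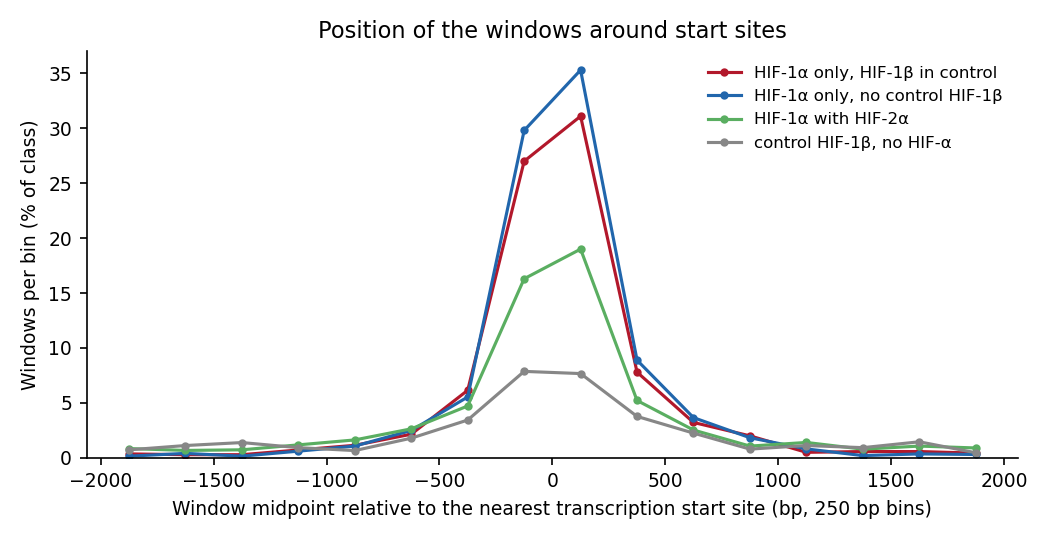
Lines give the percentage of windows of each class (y axis) whose midpoint falls in each 250 bp bin from 2 kb upstream to 2 kb downstream of the nearest start site (x axis, bp). The sites (red) and the HIF-1α windows without control HIF-1β (blue) peak at the start site, the HIF-1α windows with HIF-2α (green) peak there less, and the control HIF-1β windows without HIF-α (grey) are the flattest.

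An HRE core within 150 bp of the midpoint, on either strand, was present at 72.0% of the sites, against 65.3% of the HIF-1α windows without control HIF-1β (difference 6.65 points, 3.47 to 9.78), 60.8% of those with HIF-2α (11.2 points, 7.88 to 14.4) and 57.5% of the control HIF-1β windows without HIF-α (14.5 points, 11.0 to 17.9). Both cores contain CG, and the classes differed in base composition. The median GC content of the centre was 66.1% at the sites, 68.4% without control HIF-1β and 60.1% with HIF-2α. It was 51.5% at control HIF-1β windows without HIF-α. The share of the HRE differences that goes with composition was not tested. The core ACGTG was present at 37.4% of the sites and the core GCGTG at 56.4%. In stretches of the same length 2 kb to either side of the sites, an HRE core was present in 38.7%, and around the start sites of all 20141 protein-coding genes it was present in 53.9%. The comparison was repeated for windows within 1 kb of a start site, where the shares were 73.9% at the sites, 66.3% without control HIF-1β (difference 7.61 points, 4.18 to 11.0) and 66.0% with HIF-2α (difference 7.93 points, 3.97 to 11.9). Against the HIF-1α windows where HIF-1β was called in the HIF-1α re-expressing but not in the control cells, the difference within 1 kb was 3.38 points, with an interval of −0.378 to 7.13 that includes 0. At 40.1% of the sites there were at least 2 cores and at 392 sites none, and 1357 had a core within 500 bp.

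**Figure D3:**
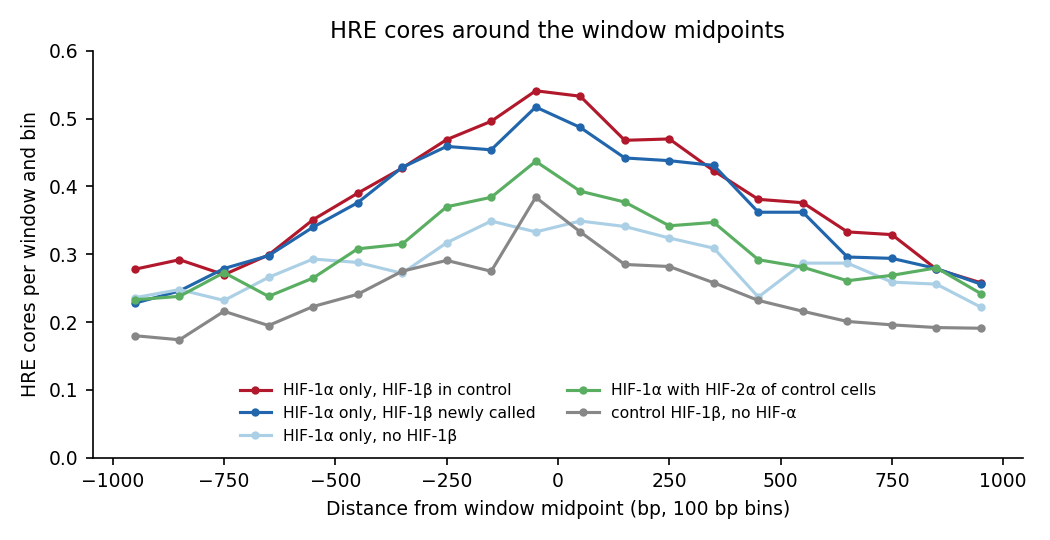
Lines give the number of HRE cores per window in each 100 bp bin (y axis) against distance from the window midpoint (x axis, bp), over 1 kb to either side. The classes differ in GC content, and the density is not adjusted for it. At the sites (red) the density rises from 0.278 at the left edge to 0.541 beside the midpoint, close to the 0.517 of HIF-1α windows where HIF-1β was newly called (dark blue), and above the highest bins of HIF-1α windows with the HIF-2α of control cells (green, 0.437), of control HIF-1β windows without HIF-α (grey, 0.384) and of HIF-1α windows without HIF-1β (light blue, 0.349).

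Among other motifs, the GC box GGGCGG, bound by SP and KLF factors, was present at 57.9% and the ETS motif CCGGAAG at 11.0%, against 54.1% and 12.1% around protein-coding start sites. The CCAAT box, searched as CCAAT, was present at 24.0%, against 33.7% there. The AP-1 motif, TGACTCA or its reverse complement TGAGTCA, was present at 5.72% of the sites, against 3.92% around protein-coding start sites. It was present at 3.11% of the sites within 1 kb of a start site and at 16.8% of those over 5 kb away. The differences from other classes that follow are for windows at any position, and the classes differed in position. The share at all the sites was 1.86 points above HIF-1α windows without control HIF-1β (3.86%, interval of the difference 0.412 to 3.41) and 3.74 points above those where HIF-1β was newly called (1.99%, 2.25 to 5.24). It was 7.93 points below HIF-1α windows with HIF-2α (13.7%, interval of the difference −9.93 to −5.90) and 10.5 points below the control HIF-1β windows without HIF-α (16.2%, −12.7 to −8.26). The AHR element TNGCGTG, which contains the core GCGTG, was present at 8.94%, against 7.57% at HIF-1α windows without control HIF-1β (difference 1.37 points, −0.494 to 3.32), 5.95% at control HIF-1β windows without HIF-α (difference 2.99 points, 1.08 to 4.93) and 6.40% around protein-coding start sites. The E-box CACGTG, which contains ACGTG, was present at 10.2%, against 7.80% there. The motif of NRF1 was found at 1.14%. All motifs were searched on both strands within 150 bp of the midpoint.

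The sites were not uniform, and their features differed between those where HIF-1β was called again after HIF-1α re-expression and those where it was not. Of the 929 sites where it was, 92.0% were within 1 kb of a start site and 82.6% were CpG-rich. Of the 469 where it was not, 57.8% and 41.2% were. An HRE core was present at 76.3% and 63.3% of them (difference 13.0 points, 7.89 to 18.2), and the AP-1 motif at 3.44% (2.45 to 4.82) and 10.2% (7.81 to 13.3). The core ACGTG alone was present at 39.0% and 34.3%, a difference of 4.64 points whose interval (−0.742 to 9.87) includes 0. The core GCGTG was present at 61.6% and 46.1%, a difference of 15.5 points (9.99 to 20.9). These groups were not compared within the same position or base composition. The motif differences between them thus cannot be told apart from those in position and composition. The 391 sites with HIF-1β in all 3 pools had an HRE core at 79.5%, and the 318 sites with HIF-1β in control cells only at 61.3%. The 149 sites over 5 kb from any start site differed from the promoter sites. Of them 18.1% were CpG-rich, 16.8% had an AP-1 motif against 3.11% of the promoter sites, 24.8% had HIF-1β after HIF-1α re-expression against 75.9%, and 65.1% had an HRE core.

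The genes at these sites were then followed in the RNA libraries. A gene was assigned to a site when its start site was the nearest and within 5 kb, which gave 1225 genes for 1249 sites. Of these, 1016 were in the count table and 986 passed the filter on low counts, as did 14225 genes in all, and 30 did not pass. The 9 RNA libraries held 27852754 to 54287621 counts. HIF1A, the gene introduced in the HIF-1α re-expressing cells, was at 171, 1681.4 and 472 CPM (counts scaled to the library total) in libraries 1 to 3 of those cells and at 30.4, 36.7 and 152 CPM in control libraries 1 to 3, so that control library 3 approached the lowest HIF-1α re-expressing library. Counts per gene do not separate the introduced transcript from the truncated and fusion HIF1A transcripts that the authors report in 786-O cells. A HIF1A level in control cells is thus no measure of full-length HIF-1α. EPAS1, which encodes HIF-2α, was at 946, 3242.9 and 879.7 CPM in the HIF-2α overexpressing cells, at 575, 627 and 397 CPM in the HIF-1α re-expressing cells and at 456, 224 and 162 CPM in control cells. It was thus above control in each replicate pair of the HIF-1α re-expressing cells too, and its part in the RNA differences was not tested. PAX8, a kidney epithelial factor, was at 175 to 364 CPM in all libraries, and none of 5 leukocyte and endothelial markers (PTPRC, CD3E, CD14, PECAM1 and CDH5) exceeded 0.837 CPM, with CD3E at 0 throughout. The genes at the sites were well expressed. Their median level per length was 8.24 CPM per kb in control cells, against 4.42 over all tested genes matched to the annotation. This was not particular to the sites. The median was 7.60 CPM per kb for genes at HIF-1α windows without HIF-2α or control HIF-1β and 11.1 for those with HIF-2α. It was 8.21 at control HIF-1β windows without HIF-α.

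In HIF-1α re-expressing against control cells, no gene at the sites passed the test without a replicate block (edgeR quasi-likelihood test, adjusted p under 0.05), and none of all genes tested did (0%). With an unadjusted p under 0.05 as the rule, 167 genes at the sites were higher (16.9%) and 74 lower (7.51%), against 11.1% and 8.23% of all genes tested. All 3 HIF-1α re-expressing libraries lay above all 3 control libraries for 178 genes and below them for 113, against 12.9% and 11.2% of all genes. Libraries of the same replicate number varied together across the pools, and with the replicate number as a block 97 genes at the sites were called higher (9.84%) and 22 lower (2.23%), against 5.41% and 2.55% of all genes tested. DESeq2 without the block called 61 higher and 16 lower, against 3.43% and 1.95% of all genes. By each of the last 4 rules the share of genes at the sites that was higher exceeded that of all genes, and the share that was lower was near the background. The median log2 fold change was 0.09 at the sites and 0.04 over all genes, so that the typical gene at the sites differed little. The calls with the block rested on single libraries. Leaving out HIF-1α re-expressing library 2, HIF-2α overexpressing library 1, or control library 2 or 3 left 0 genes at the sites called in either direction, leaving out HIF-1α re-expressing library 3 left 4 and library 1 left 40, leaving out HIF-2α overexpressing library 2 or 3 left 80 or 50, and leaving out control library 1 raised the number to 218.

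Beside the other classes of window, with the block, 6.31% of 1537 genes at HIF-1α windows without HIF-2α or control HIF-1β were called higher, 7.53% of 837 at HIF-1α windows with HIF-2α and 4.76% of 483 at control HIF-1β windows without HIF-α. The shares called lower were 2.28%, 2.27% and 2.69%. Of the 986 genes at the sites, 27, 43 and 34 were also nearest to a window of these classes. The differences between classes were not tested. Within the sites, where HIF-1β was present in HIF-1α re-expressing cells too, 80 of 739 genes were called higher (10.8%) and 10 lower (1.35%), and where it was not, 17 of 247 (6.88%) were called higher and 12 lower (4.86%). With HIF-1β in all 3 pools the counts were 36 higher and 2 lower of 315 genes. With an HRE core near the midpoint 9.46% of 740 genes were called higher, and without a core 11.0% of 246.

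**Figure D4:**
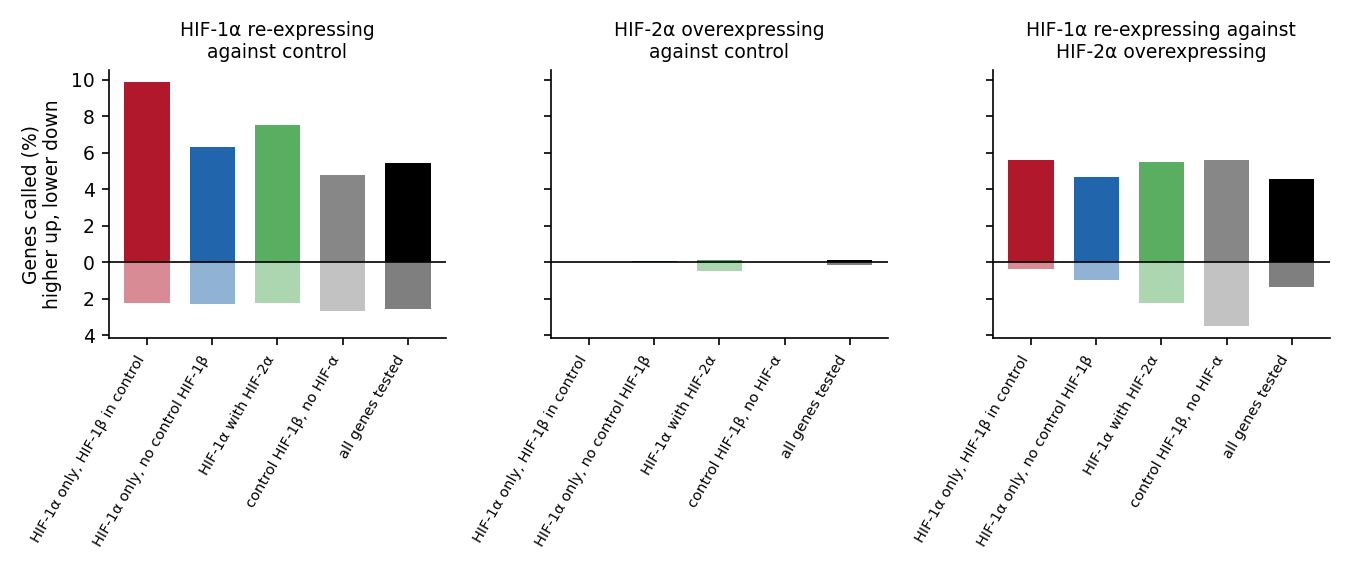
Bars give the percentage of tested genes called higher (upwards) or lower (downwards, pale) at adjusted p under 0.05 in the fit with the replicate block (y axis), for the genes nearest to windows of each class and for all 14225 genes (x axis), in 3 comparisons that share libraries. In HIF-1α re-expressing against control cells the genes at the sites (red) reach 9.84%, against 5.41% of all genes. In HIF-2α overexpressing against control cells no gene at the sites was called, against 0.112% higher and 0.155% lower of all genes.

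Of 79 genes in 8 lists of HIF targets, 76 were tested and 13 of these were at a site (17.1%, against 6.93% of all tested genes), whereas 44 of the listed genes had a HIF-1α window with HIF-2α within 5 kb. In the fit with the block, 3 of the 13 were called higher and none lower in HIF-1α re-expressing cells. They are LOX, CA9 and WSB1. The shares of all genes tested were 5.41% and 2.55%. Listed genes away from the sites were called higher too. In the list of mitochondria and mitophagy, with 0 genes at a site, 2 of 7 were. In that of secreted factors and others 4 of 19 were, 1 of them at a site. In that of glucose uptake and glycolysis 0 of 20 were.

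LOX was at 42.5, 7.40 and 11.9 CPM in control libraries 1 to 3, at 91.5, 485 and 209 CPM in HIF-1α re-expressing libraries and at 90.3, 115 and 96.3 CPM in HIF-2α overexpressing libraries. The HIF-1α re-expressing and control libraries did not overlap. The log2 fold change against control was 3.70 ± 0.80 (SE, n = 3 libraries per pool) with the block (adjusted p = 0.0388), and 3.67 without it (adjusted p = 0.149), and over the alternatives run for single genes the adjusted p ranged from 1.49e-05 to 0.337.

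CA9 was at 0, 0.171 and 14.3 CPM in control libraries, at 8.45, 177 and 68.3 CPM in HIF-1α re-expressing libraries and at 0.120, 0.105 and 0.694 CPM in HIF-2α overexpressing libraries. Control library 3, which also had the highest HIF1A of the control libraries, lay above HIF-1α re-expressing library 1. The log2 fold change against control was 5.72 ± 1.36 with the block (adjusted p = 0.0427) and 4.13 without it (adjusted p = 0.236), with a range over the alternatives of 0.0427 to 0.441 in adjusted p. CA9 was also higher in HIF-1α re-expressing than in HIF-2α overexpressing cells, where every library of the first exceeded every library of the second (log2 fold change 8.85 ± 1.55 with the block, adjusted p = 0.0147).

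WSB1 was at 71.6, 94.5 and 74.7 CPM in control libraries and at 96.0, 218 and 256 CPM in HIF-1α re-expressing libraries, with no overlap (log2 fold change 1.14 ± 0.24, adjusted p = 0.0366 with the block and 0.162 without, range over the alternatives 0.0319 to 0.374). KDM4C did not pass the test (log2 fold change 0.85 ± 0.26, adjusted p = 0.0697 with the block), and its libraries overlapped, at 28.5, 17.1 and 11.7 CPM in control and 28.5, 46.1 and 24.8 CPM in HIF-1α re-expressing cells. ANKRD37 (log2 fold change 1.51 ± 0.57) and FAM162A (a mitochondrial protein, 1.48 ± 0.64) had greater differences but adjusted p values of 0.110 and 0.144 with the block. For PFKFB3, KDM2B, ZNF395 (a zinc finger protein), P4HB, SLC16A1 and CCND1 the log2 fold changes lay between 0.17 and 0.54, and none passed the test. HIF-1α re-expressing library 2 was the highest of the pool for PFKFB3 and KDM2B, at 511 and 98.3 CPM, and without it both log2 fold changes without the block were −0.18.

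TGFA, a ligand of the EGF receptor and a HIF-2 target in renal cancer cells, differed between HIF-1α re-expressing and HIF-2α overexpressing cells. It was at 958, 570.3 and 970.2 CPM in control libraries, at 595, 459 and 617 CPM in HIF-1α re-expressing libraries and at 1528, 2566.4 and 2857.9 CPM in HIF-2α overexpressing libraries. Each HIF-2α overexpressing library was above all others. The log2 fold change of HIF-1α re-expressing against HIF-2α overexpressing cells was −2.06 ± 0.28 with the block (adjusted p = 0.00571) and −2.06 without it (adjusted p = 0.0541). The window at TGFA lay 29.0 kb from the nearest HIF-2α midpoint and held no HRE core within 150 bp of its midpoint.

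By the rule for named genes, the 10 largest rises among the called genes with at least 5 CPM in the higher pool were, besides LOX and CA9, those of NIM1 (a kinase related to AMPK), SPRY1, RASAL1, LRP1 (an endocytic receptor), ARID3A (an AT-rich DNA-binding factor), KIAA1958, GPR146 and PRKAA2. The rule took genes that were higher in all 3 replicate pairs. Their log2 fold changes with the block were 1.95 to 5.72, with adjusted p values of 0.0264 to 0.0427. Without the block they were 2.09 to 4.70, with adjusted p values of 0.149 to 0.293.

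PRKAA2 was at 10.9, 11.5 and 10.5 CPM in control libraries and at 28.9, 76.3 and 35.2 CPM in HIF-1α re-expressing libraries, a log2 fold change of 1.95 ± 0.26 with the block (adjusted p = 0.0264). LRP1 was at 142, 57.1 and 70.4 CPM in control and 224, 563 and 481 CPM in HIF-1α re-expressing libraries (2.23 ± 0.44, adjusted p = 0.0358), again without overlap.

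In the HIF-1α re-expressing cells, library 2 was the highest for all of these largest rises except RASAL1. For NIM1 and SPRY1, as for most of the others, the difference from control was greatest in library 2. NIM1 was at 0.103, 0.540 and 0.417 CPM in control and 0.931, 24.3 and 2.57 CPM in HIF-1α re-expressing libraries, and SPRY1 at 0.595, 0.512 and 0.703 CPM in control and 1.57, 20.3 and 3.63 CPM in HIF-1α re-expressing libraries. HIF1A was also highest in that library. For RASAL1 it was library 3 that was high in both pools, at 2.45 CPM in control and 20.4 CPM in HIF-1α re-expressing cells against 0.233 and 0.199 CPM, and 0.441 and 1.27 CPM, in libraries 1 and 2, and without HIF-1α re-expressing library 3 the log2 fold change without the block was −0.17. Their log2 fold changes over the alternatives were 2.28 to 5.24 for NIM1 and 2.07 to 4.30 for SPRY1. GPR146 overlapped between the pools too, whereas ARID3A, at 0.990 to 2.85 CPM in control and 5.01 to 16.7 CPM in HIF-1α re-expressing libraries, and KIAA1958, at 1.55 to 2.53 and 3.72 to 11.0 CPM, did not.

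The 5 largest falls were smaller and held 3 genes of respiratory complex I, namely its subunits NDUFB2 and NDUFS6 and its assembly factor NDUFAF6. NDUFB2 was at 119, 122 and 125 CPM in control libraries and at 73.3, 61.1 and 44.6 CPM in HIF-1α re-expressing libraries, without overlap (log2 fold change −1.07 ± 0.21, adjusted p = 0.0358 with the block and 0.149 without, range over the alternatives 0.0145 to 0.352). The log2 fold change was −0.95 ± 0.23 for NDUFS6 and −0.92 ± 0.23 for NDUFAF6 (adjusted p = 0.0431 and 0.0459 with the block). Among the 38 tested complex I subunits, 6 were at the sites, and 2 of these were called lower and none higher. In the whole group 9 were lower and none higher, so that the falls of complex I subunits were not limited to genes at the sites. Nor were falls particular to complex I. With the block, 12 of 76 mitochondrial ribosomal protein genes and 7 of 46 proteasome subunit genes were called lower, and none higher. Of 463 ZNF genes, 33 were called higher and 1 lower. POP7 was at 36.4, 51.0 and 52.2 CPM in control and 26.9, 26.3 and 18.8 CPM in HIF-1α re-expressing libraries (−0.96 ± 0.23, adjusted p = 0.0427 with the block). ID2 was at 99.0, 95.9 and 131 CPM in control, 57.0, 63.8 and 49.6 CPM in HIF-1α re-expressing and 115, 84.2 and 114 CPM in HIF-2α overexpressing libraries, and was lower than in either of the other pools with the block (adjusted p = 0.0402 and 0.0417).

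**Figure D5:**
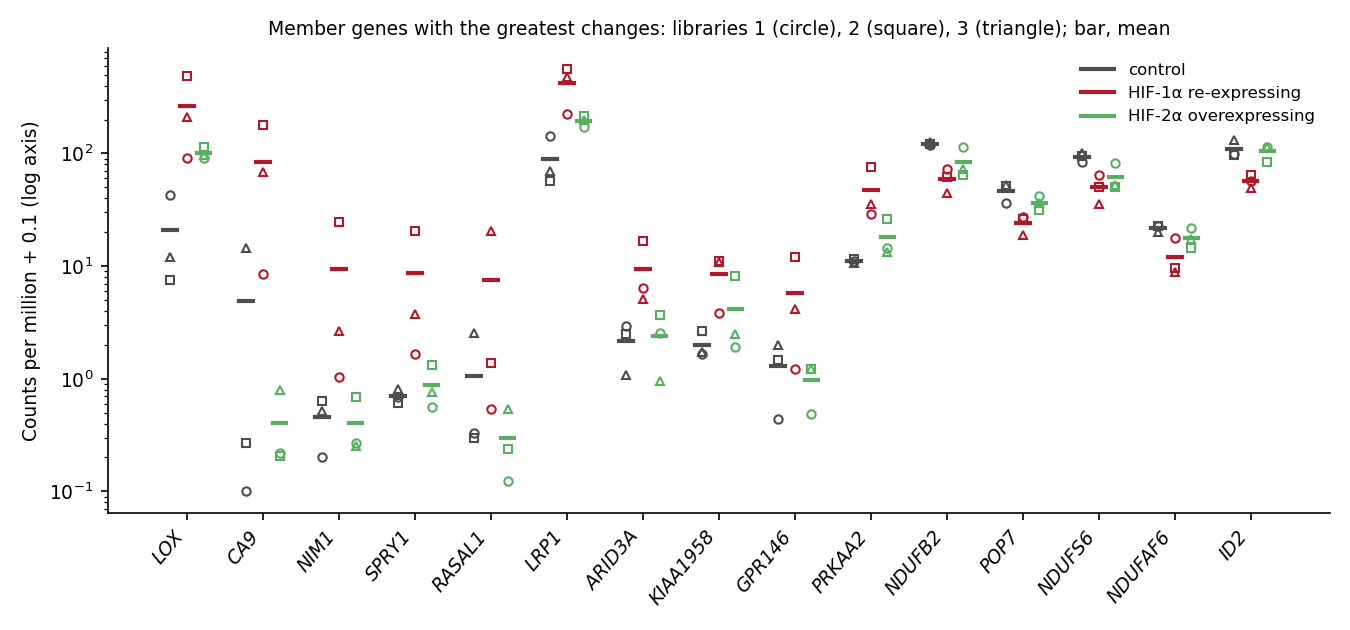
Points give the level in each RNA library (CPM plus 0.1, log axis) of the 10 genes at the sites with the largest rises and the 5 with the largest falls among those called with the block (x axis), with circles, squares and triangles for libraries 1, 2 and 3 and a bar for the mean of the 3 libraries of each pool. In HIF-1α re-expressing cells (red) library 2 is the highest for all of the largest rises except RASAL1, where library 3 is. The complex I genes NDUFB2, NDUFS6 and NDUFAF6 lie below the control cells (dark grey).

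Families formed from gene names were set beside the 6.93% of all tested genes that were at the sites, and the differences between them were not tested. The share was 18.8% for 16 small nucleolar RNA host genes and 15.8% for 38 complex I subunits. It was 14.5% for 83 genes named as splicing factors or DDX helicases and 14.0% for 50 genes with EIF names. It was 13.6% for 22 lysine demethylases and JmjC proteins. Names do not fix function: the genes at the sites include DDX3Y, DDX18 and DDX21 in the first of these name groups, and EIF2AK3 (a kinase) and EIF4EBP1 in the second. It was 4.97% for 463 zinc finger genes of the ZNF family, 4.35% for 46 proteasome subunits, 3.75% for 80 cytosolic ribosomal proteins and 0% for 34 aminoacyl-tRNA synthetases. The other 4 families, which include solute carriers at 8.76% and mitochondrial ribosomal proteins at 5.26%, lay between these. In HIF-1α re-expressing against control cells with the block, 3 of 23 ZNF genes at the sites were called higher (ZNF141, ZNF160 and ZNF654), against 33 of all 463. Of 22 solute carriers at the sites 3 were called higher (SLC1A1, SLC8A1 and SLC25A36), against 11 of all 251, and of 3 demethylases at the sites 1 was (KDM7A), against 3 of all 22. Calls in these families were thus also made away from the sites, and the called genes are named after their values were seen.

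In HIF-2α overexpressing against control cells, a comparison that uses the same control libraries, no gene at the sites was called higher or lower with or without the block, against 0.112% and 0.155% of all genes with the block. DESeq2 called 2 higher, TGFA and DNAH5 (an axonemal dynein, named after its value was seen), and 0 lower, against 0.246% and 0.176% of all genes. With an unadjusted p under 0.05, 37 were higher and 22 lower, against 3.35% and 2.54% of all genes. All 3 HIF-2α overexpressing libraries lay above the control libraries for 75 genes and below them for 51, against 6.0% and 5.19% of all genes. For TGFA the log2 fold change was 1.49 ± 0.28 with the block (adjusted p = 0.0695). LOX had a log2 fold change of 2.35 ± 0.73 in this comparison and 3.70 ± 0.80 in that of HIF-1α re-expressing cells, and only the second passed the test. In the direct comparison of the pools it was 1.35 ± 0.69 (adjusted p = 0.262).

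HIF-1α re-expressing cells were also compared directly with HIF-2α overexpressing cells. Without the block no gene at the sites was called, against 0.0281% higher and 0.0211% lower of all genes, and DESeq2 called 42 higher and 3 lower, against 3.27% and 0.970%. With an unadjusted p under 0.05, 115 were higher and 28 lower, against 9.04% and 4.60%. The libraries of the pools did not overlap for 116 genes that were higher and 68 that were lower, against 10.4% and 8.82% of all genes. With the block 55 were called higher (5.58%) and 4 lower (0.406%), against 4.54% and 1.38% of all genes, so that the share called higher was near the background here. The 5 largest rises by the rule were CA9, RASAL1, NIM1, SYT12 (a synaptotagmin) and SPRY1. SYT12 was at 20.5, 13.9 and 94.4 CPM in HIF-1α re-expressing and 1.54, 1.92 and 14.8 CPM in HIF-2α overexpressing libraries, with library 3 high in each pool (log2 fold change 3.10 ± 0.31, adjusted p = 0.00234). The 4 genes called lower were TGFA, ID2, PHTF2 and DDB2 (a DNA damage recognition protein, named after its value was seen).

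Many genes at the sites were highly expressed in every pool and were called in no comparison. By level per length, the highest of these were TMSB10 (an actin-sequestering thymosin), ACTG1 (gamma actin), PRDX1 (a peroxiredoxin), AKR1B1 (aldose reductase) and UCHL1 (a ubiquitin hydrolase), at means of 3567.1, 982, 459, 411 and 361 CPM per kb over the 9 libraries. ACTG1 was at 3334.6, 5021.8 and 6403.9 CPM in control libraries and at 2687.8, 3992 and 2866.5 CPM in HIF-1α re-expressing libraries, which overlap, with a log2 fold change of −0.60 ± 0.27 with the block (adjusted p = 0.161).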

How the data were processed

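Binding of the HIF subunits came from 7 ChIP-seq libraries, 1 per antiserum and pool, and RNA levels from RNA-seq (9 libraries, 3 per pool). The authors trimmed reads with Trim Galore 0.3.3, aligned ChIP reads to GRCh37 with BWA 0.7.5a-r405, removed poorly mapped reads, blacklisted regions and duplicates, and retained peaks called by T-PIC as well as MACS that held more reads than random DNase regions. The deposited lists give positions of 2500 bp windows without score or signal, so depth and peak height are unknown. The deposited RNA values are raw counts per gene symbol, made by the authors with TopHat 2.0.8b and HTSeq 0.5.4p3, with replicates kept apart.

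Windows were compared by shared bases (at least 1, bedtools 2.31.1), start sites taken from GENCODE release 44 lifted to GRCh37 (64449 genes, 220817 start sites), and motifs searched within 150 bp of midpoints (Python 3.11.15, pysam 0.24.0, samtools 1.23.1). Shares have 95% Wilson intervals and differences Newcombe intervals, which cover counting error only. Of 23441 symbols, 20654 matched the annotation directly and 1409 by an older symbol. All 9 RNA libraries, of 27852754 to 54287621 counts, entered 1 fit with the pool as term (edgeR 4.0.16 in R 4.3.3, TMM, filterByExpr, quasi-likelihood test, Benjamini-Hochberg over 14225 genes, threshold 0.05). At these depths the spread between libraries, not counting error, limits precision. DESeq2 1.42.0 was an alternative. The replicate numbers pair the libraries: after subtracting pool means, same-numbered libraries correlated across genes at 0.348 to 0.652 and differently numbered ones at −0.478 to 0.0281, so a fit with the number as a block is given beside the main one. Nothing states that libraries came from separate cultures, so p-values measure only the spread between these samples. On simulated counts with replicate effects and 200 genes changed 4-fold, the fit recovered 51.5% without and 88.0% with the block, and called 0 and 9 unchanged genes. Without replicate effects it recovered 64.5% and 61.5%, with 5 unchanged genes called by each. The simulated replicate effects were taken from the fit with the block and were the same in every pool. The higher recovery with the block was thus built in, and it cannot show that the calls made with the block in these data are right.

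Named genes are those of the HIF target lists at a site, the 10 largest rises and 5 largest falls called with the block in HIF-1α re-expressing against control cells (at least 5 CPM in the higher pool, same direction in all pairs), 5 and 3 in the other comparisons, and the 5 highest uncalled genes by level. The sites, lists and rules were chosen with earlier results of these data known. Genes sharing reads with paralogs or overlapping genes are uncertain.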

Additional observations from a re-analysis of the deposited data

How the results depend on the processing

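The number of sites was within 1.5 times of 1398 when more overlap with control HIF-1β, closer midpoints or a greater distance from HIF-2α was required. Of 190 alternative values for the main results, 121 stayed within their limits. With HIF-1α and HIF-1β midpoints at most 500 bp apart, the share with HIF-1β fell to 52.3% in the HIF-1α re-expressing and 31.3% in the HIF-2α overexpressing cells. The share near a start site was 82.0% with protein-coding start sites, 80.0% with 1 start site per gene and 80.5% within 1 kb. With motifs searched 75 or 500 bp to either side, an HRE core was present at 47.9% or 97.1% and the AP-1 motif at 3.58% or 15.2%.

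The counts of called genes depended on the replicate block, which pairs same-numbered libraries, on the tool and, with the block, on single libraries. For HIF-1α re-expressing against control cells the main fit called 0 higher and 0 lower, DESeq2 61 and 16, the block 97 and 22, the block with DESeq2 178 and 83, with RLE factors 91 and 29, with no scaling factors 100 and 23, and with genes within 10 kb 123 and 37. Leaving out 1 library in turn gave 0 to 153 higher and 0 to 65 lower. For HIF-2α overexpressing against control cells DESeq2 called 2 higher, the block with DESeq2 24 higher and 8 lower, the block with genes within 10 kb 1 higher, and leaving out 1 library 0 to 7 higher and 0 to 2 lower. For HIF-1α re-expressing against HIF-2α overexpressing cells DESeq2 called 42 higher and 3 lower, no filter 2 and 1, the block 55 and 4, the block with DESeq2 113 and 28, with RLE factors 50 and 5, with no scaling factors 61 and 3, and with genes within 10 kb 72 and 6. Leaving out 1 library there gave 0 to 62 higher and 0 to 5 lower. The fits of the block with DESeq2, another scaling or 10 kb, and the fit with no scaling factors, were chosen after seeing the data. The causes of these changes were not tested.

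Of 429 alternative values for single genes, 396 kept their direction and their side of the threshold, 30 passed it and 3 reversed. Without HIF-1α re-expressing replicate 2 the log2 fold change against control was −0.18 for PFKFB3 and −0.18 for KDM2B, and without replicate 3 it was −0.17 for RASAL1. Over all libraries left out in turn the highest values were 1.01, 0.71 and 5.07. No depth is known for the windows, so that a missing HIF-1β call cannot be told apart from a shallow library.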
